A study of Mus musculus with 8 samples.

Results

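The TRAF adaptors, the kinase NIK and the subunits of the IKK complex form the signalling layer under RANK, the receptor of the cytokine RANKL. The group was taken as 10 named genes, found by matching the Ensembl identifiers of the count table to symbols: Traf1, Traf2, Traf3, Traf4, Traf5, Traf6, Map3k14 (NIK), Chuk (IKKα), Ikbkb (IKKβ) and Ikbkg (NEMO). All 10 were among the 54532 genes listed, and 8 of them were among the 9971 genes with enough counts to be tested. They were chosen by name and role, with earlier results of these data known.

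The libraries came from mouse intestinal organoids, epithelial structures grown from isolated crypts in a gel, in a medium with EGF, NOGGIN and R-spondin. There were 4 control libraries and 4 from organoids given RANKL. The study kept its mouse lines on a C57BL/6J background, but the genotype, sex and age behind these organoids were not given. The dose and duration of RANKL were not stated for these libraries, and nothing said whether replicates came from separate cultures or animals, so that p-values measure the spread between these libraries, which may be technical. RNA was read with a 3′ tag kit as single reads of 50 bases, so that long and short transcripts yield counts alike. Values are compared here within a gene, as CPM, the counts scaled to a common library size with TMM factors between libraries.

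Total counts ran from 583663 in control replicate 4 and 613135 in RANKL replicate 1 to 7807298 in control replicate 1, and the control libraries together held 2.81 times as many counts as the RANKL libraries. Where no read was counted, as many as 3 could have been missed, equal to 0.384 CPM at the greatest depth and 5.14 CPM at the lowest. This limit and the Poisson intervals cover counting error alone, because copies made by PCR were not removed. Epithelial markers (Epcam, Cdh1, Vil1, Krt8, Krt20 and Cdx2) summed to between 4899 and 5747 CPM in control and between 5190 and 5628 CPM in RANKL libraries, and 0 of the 6 passed the test in either direction. Summed markers of fibroblasts, endothelium and leukocytes reached at most 4.84 CPM in any library, with Dcn, Cdh5, Kdr and Cd3e at 0 counts in all 8.

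RANK has no enzyme activity of its own and passes its signal on by recruiting TRAF adaptors. In the canonical branch, TRAF6 and related adaptors build ubiquitin chains that activate the kinase TAK1 and then an IKK complex in which IKKβ and the scaffold NEMO lead to the loss of the inhibitor IκBα. In the non-canonical branch, TRAF3, TRAF2 and the ligases cIAP1 and cIAP2 keep NIK at a low level in resting cells by marking it for degradation. Engaged receptors draw this complex away, NIK builds up and activates IKKα, and p100 is processed so that p52 and RelB can act. Much of this control acts on protein stability, which transcript counts do not measure. In the gut, RANKL is best known as the signal that turns epithelial cells over lymphoid follicles into M cells.

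Transcripts of NIK, of both adaptors of the complex that degrades it and of IKKβ were higher with RANKL. Of the 8 genes tested, 4 rose (Map3k14, Traf3, Traf2 and Ikbkb), 0 fell and 4 did not pass the test (Traf6, Traf4, Ikbkg and Chuk), by edgeR's quasi-likelihood test with Benjamini-Hochberg adjustment over all 9971 genes and a threshold of 0.05. In the same test 25.9% of all genes passed, 13.6% as higher and 12.4% as lower with RANKL. The median log2 fold change was 0.32 over the 8 genes, against 0.00 over all genes tested. The 4 genes that rose did not overlap between groups, with every RANKL library above every control library. Over all genes tested, 13.1% were higher with RANKL without overlap. Map3k14, Traf3, Traf2 and Ikbkb also rose when the shallowest library of each group, control replicate 4 and RANKL replicate 1, was left out.

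The 4 that rose took part in both branches, and the adaptor most closely tied to RANK itself, Traf6, was not among them. Among the 6 TRAF genes, 2 rose, 2 were tested and did not pass, and 2 were too low to test. Of the 3 subunits of IKK, 1 rose, Ikbkb, the kinase subunit of the canonical branch.

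**Figure D1:**
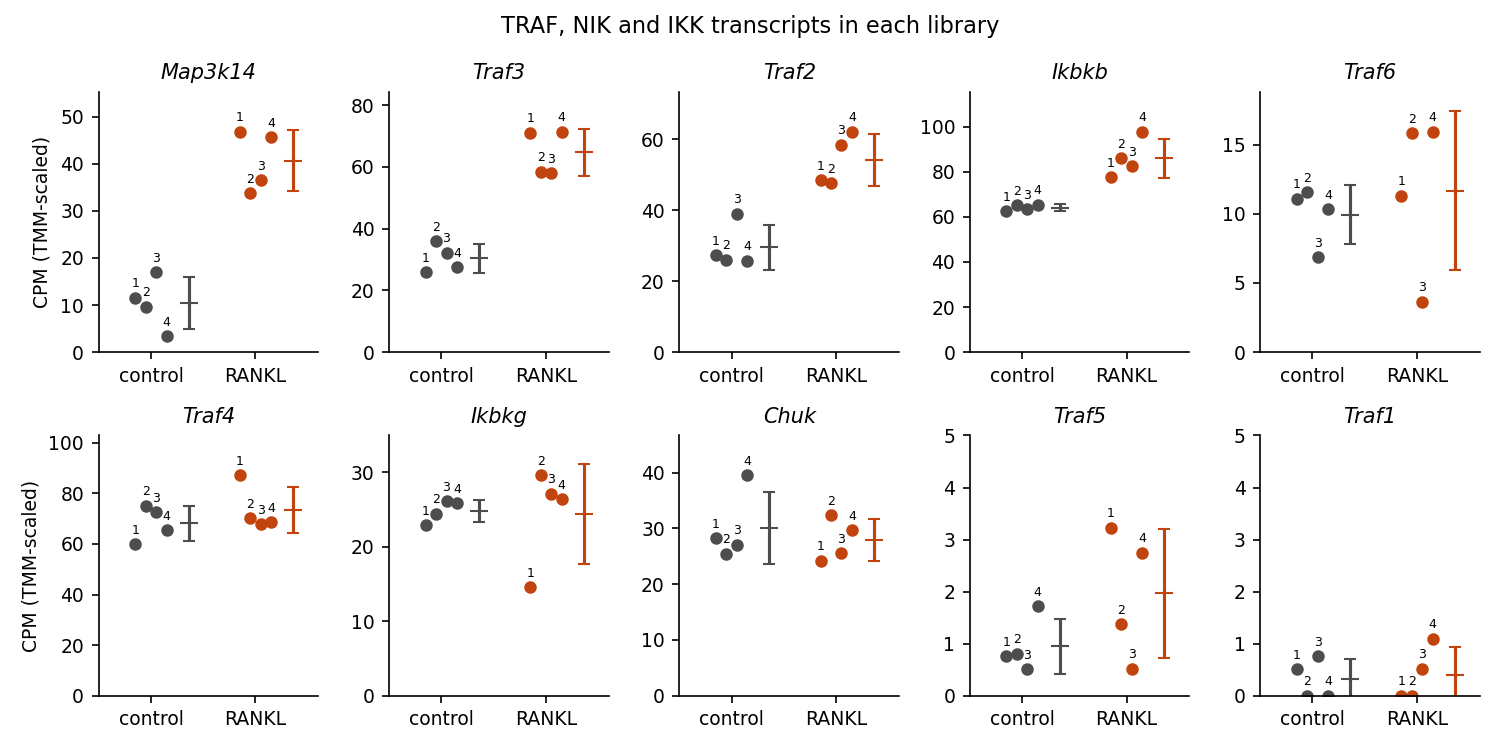
TMM-scaled CPM of the 10 genes in each library, with 4 control points in grey and 4 RANKL points in orange, each numbered by replicate, and the mean and SD beside them, on axes that start at 0 and differ between genes. The groups stand apart for Map3k14, Traf3, Traf2 and Ikbkb and overlap for the other 6, and Traf5 and Traf1 stay below 5 CPM in every library.

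Sequence just upstream of the start is shown for the 3 genes that rose and have an entry in the RefSeq promoter table (GRCm38.p6), since the transcription factors at the end of this pathway, the NF-κB proteins, bind DNA at κB sites. Each is given 5′ to 3′ on the strand of the gene, up to the base before the gene's start in the annotation, and capitals mark a match to the κB consensus.
Traf3, chr12:111166120-111166369, plus strand: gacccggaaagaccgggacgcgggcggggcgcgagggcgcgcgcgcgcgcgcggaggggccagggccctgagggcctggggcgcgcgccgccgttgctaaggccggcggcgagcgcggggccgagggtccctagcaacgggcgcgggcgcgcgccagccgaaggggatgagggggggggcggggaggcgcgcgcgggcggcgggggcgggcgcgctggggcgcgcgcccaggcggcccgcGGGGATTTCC
Traf2, chr2:25546941-25547190, minus strand: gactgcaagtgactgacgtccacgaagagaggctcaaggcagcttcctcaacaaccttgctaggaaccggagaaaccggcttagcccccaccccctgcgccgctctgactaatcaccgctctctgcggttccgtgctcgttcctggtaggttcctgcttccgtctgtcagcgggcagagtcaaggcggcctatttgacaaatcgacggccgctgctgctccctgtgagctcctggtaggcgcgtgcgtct
Map3k14, chr11:103267473-103267651, minus strand: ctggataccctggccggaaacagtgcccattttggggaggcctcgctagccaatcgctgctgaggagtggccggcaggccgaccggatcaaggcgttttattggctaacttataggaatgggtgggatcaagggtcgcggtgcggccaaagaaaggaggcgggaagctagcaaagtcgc

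The κB consensus, 10 bases long, was searched on both strands in the table's full windows of 300 bases, from 250 before to 50 after the start. Traf3 held 1 match, at chr12:111166360-111166369, on the plus strand, in the last 10 bases before its start. The windows of Traf1, Traf2, Traf4, Traf5, Traf6, Map3k14, Chuk and Ikbkg held no match, and Ikbkb has no entry in the table. Thus 1 of the 9 genes with a window held a match, against 4.5% of all 32851 windows and 6.12% of the 7680 tested genes with an entry. Among the genes of the IKK substrates and NF-κB subunits, 4 of the 6 with an entry held one (Nfkbia, Nfkbie, Nfkb2 and Rel), and among the deubiquitinases 2 of 6 did (Tnfaip3 and Cyld). The other lists held matches in 0 of 5 receptors, 3 of 17 adaptors and ligases (Tank, Tifa and Sqstm1), 1 of 6 genes of the TAK1 list (Map3k7) and 1 of 4 of the IKK-related list (Tbkbp1). Of these, Tifa, Sqstm1 and Map3k7 did not pass the test of RANKL against control, and Tbkbp1 was not tested. A match is a description of letters and does not show that a factor binds there.

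Map3k14 encodes NIK, the kinase that starts the non-canonical branch, and lies at chr11:103219762-103267472 on the minus strand of GRCm38. Given in the order of replicates 1 to 4, as for every gene that follows, its level was 11.6, 9.66, 17.0 and 3.44 CPM in the control libraries and 46.8, 33.7, 36.5 and 45.6 CPM in the RANKL libraries. The highest control library lay well under the lowest RANKL library, and the lowest control value rested on 2 counts in the shallowest library, with a 95% Poisson interval from 0.417 to 12.4 CPM. The mean rose from 10.4 ± 5.59 to 40.7 ± 6.52 CPM (SD, n = 4 each). Its log2 fold change was 1.73 (SE 0.21, 95% interval 1.30 to 2.16, edgeR adjusted p = 1.8e-07). That rise was larger than those of 98.3% of the genes tested, and 170 genes rose more. Without control replicate 4 the log2 fold change was 1.66. An exon of 1700028N14Rik shares 135 bases with Map3k14 on the same strand, and that gene held 5 counts in all.

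Traf3 encodes the adaptor that holds NIK for degradation and is itself degraded when receptors of this class are engaged. It lies at chr12:111166370-111267153 on the plus strand. Control libraries held 25.8, 36.0, 32.2 and 27.5 CPM, and RANKL libraries 71.0, 58.5, 57.9 and 71.4 CPM. All RANKL values exceeded all control values by a wide gap, and RANKL replicate 1 rested on 44 counts. Traf3 rose from 30.4 ± 4.59 to 64.7 ± 7.52 CPM (SD, n = 4 each), by 1.06 on the log2 scale (SE 0.15, 95% interval 0.76 to 1.37, edgeR adjusted p = 2.0e-06). Only 401 of the genes tested rose more.

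Traf2 encodes the adaptor that brings the cIAP ligases to that complex and also serves the TNF receptors in the canonical branch. It lies at chr2:25517982-25546940 on the minus strand. Its level was 27.4, 26.0, 39.0 and 25.8 CPM in the control and 48.4, 47.5, 58.4 and 62.1 CPM in the RANKL libraries. Control replicate 3 stood above the other 3 controls and still below every RANKL library. From 29.6 ± 6.35 to 54.1 ± 7.25 CPM (SD, n = 4 each), Traf2 rose by 0.87 on the log2 scale (SE 0.16, 95% interval 0.54 to 1.19, edgeR adjusted p = 0.00011). Without control replicate 3 the log2 fold change was 1.04.

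Ikbkb encodes IKKβ, the kinase that phosphorylates IκBα in the canonical branch, and lies at chr8:22659212-22706589 on the minus strand. The control libraries were nearly level, at 62.4, 65.2, 63.4 and 65.3 CPM, and the RANKL libraries held 77.5, 86.0, 82.4 and 97.8 CPM. The rise was the smallest of the 4 and also the one with the tightest controls. Control replicate 4 held 38 counts, and counting error alone would spread the controls more than was seen. The mean went from 64.1 ± 1.45 to 85.9 ± 8.63 CPM (SD, n = 4 each). The log2 fold change was 0.45 (SE 0.12, 95% interval 0.20 to 0.69, edgeR adjusted p = 0.0054). It kept its call when each library was left out in turn, with the highest adjusted p, 0.046, without RANKL replicate 4. For each of the 4 genes that rose, exact permutation of the libraries' CPM over all 70 assignments (two-sided) gave p = 0.0286, the smallest p that this design allows. That p follows from the lack of overlap and adds nothing to it.

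**Figure D2:**
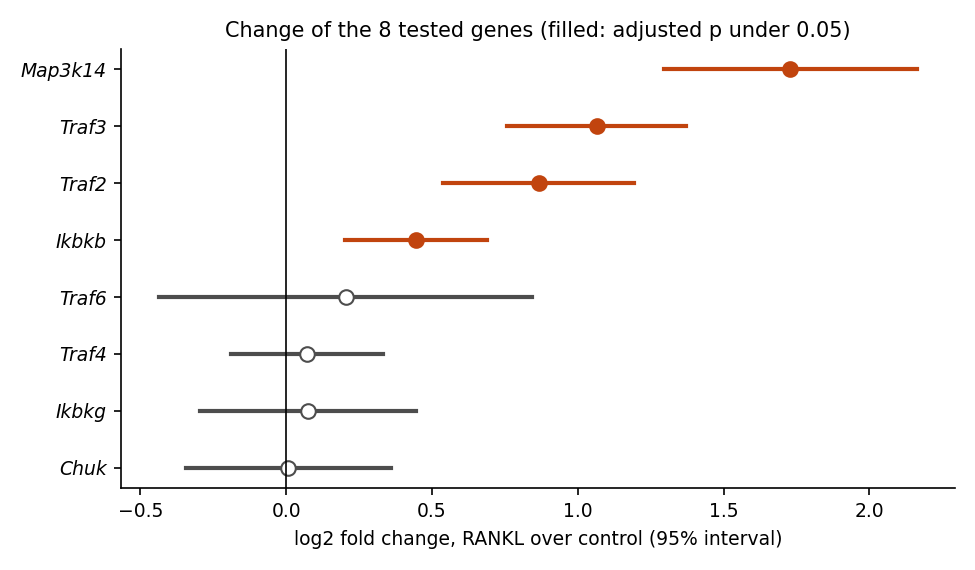
Log2 fold change of RANKL over control with its 95% interval for the 8 genes tested, with filled orange points for an edgeR adjusted p under 0.05. The intervals of Map3k14, Traf3, Traf2 and Ikbkb lie above 0, from 0.20 at the lowest bound of Ikbkb to 2.16 at the highest of Map3k14, and those of the other 4 include 0.

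Traf6 encodes the ubiquitin ligase through which RANK activates TAK1, and lies at chr2:101678429-101701669 on the plus strand. It had few counts, between 6 and 87 in a library, and its level was 11.1, 11.5, 6.84 and 10.3 CPM in the control and 11.3, 15.8, 3.65 and 15.9 CPM in the RANKL libraries. RANKL replicate 3, with 7 counts and a 95% Poisson interval from 1.47 to 7.52 CPM, was the lowest of all 8 libraries, and the other 3 RANKL libraries lay around and above the controls. Traf6 did not pass the test, with a log2 fold change of 0.20 (SE 0.31, 95% interval -0.44 to 0.84, edgeR adjusted p = 0.68). Without RANKL replicate 3 the value was 0.59, with an edgeR adjusted p of 0.14.

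Traf4 encodes a TRAF that is prominent in epithelia and less tied to TNF receptors than the others. It lies at chr11:78158499-78165589 on the minus strand. Its level was 60.0, 75.1, 72.5 and 65.3 CPM in the control and 87.2, 70.2, 67.8 and 68.7 CPM in the RANKL libraries. Apart from RANKL replicate 1, the RANKL libraries fell inside the range of the controls. The log2 fold change was 0.07 (SE 0.13, 95% interval -0.19 to 0.33, edgeR adjusted p = 0.73).

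Chuk encodes IKKα, the kinase that NIK activates, and lies at chr19:44073335-44107480 on the minus strand. Control libraries held 28.3, 25.5, 27.1 and 39.6 CPM and RANKL libraries 24.2, 32.3, 25.6 and 29.7 CPM. The groups overlapped, and the highest value was that of the shallow control replicate 4. With a log2 fold change of 0.01 (SE 0.17, 95% interval -0.34 to 0.36), Chuk did not pass edgeR's test (adjusted p = 0.98).

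Ikbkg encodes NEMO, the scaffold that binds ubiquitin chains for the canonical complex, and lies at chrX:74393290-74453854 on the plus strand. Its control level was 22.9, 24.4, 26.1 and 25.8 CPM, and its RANKL level was 14.5, 29.6, 27.1 and 26.4 CPM. Only RANKL replicate 1, one of the shallow libraries, with 9 counts, stood apart from the rest. NEMO's log2 fold change was 0.07 (SE 0.18, 95% interval -0.30 to 0.44, edgeR adjusted p = 0.81). Exons of G6pdx overlap Ikbkg on the opposite strand, and the counting was strand-specific.

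Traf1 and Traf5 could not be tested. Traf1, an adaptor with no ubiquitin ligase domain that is mostly known from lymphocytes, lies at chr2:34941750-34961772 on the minus strand and held 7 counts in all control libraries and 3 in all RANKL libraries, at most 1.10 CPM in any library. Its ratio of RANKL over control was 1.19, with a 95% counting interval from 0.198 to 5.20. Traf5, a close relative of Traf2 and Traf3 at chr1:191997205-192092559 on the minus strand, held 12 and 10 counts, at most 3.23 CPM. The counting interval of its ratio, 2.31, ran from 0.894 to 5.83. Both genes stayed under the 5.14 CPM that a count of 0 allows in the shallowest library. The counting intervals rest on the counts pooled over each group, and changes inside them were not detectable at this depth.

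Ratios between the genes within a library do not depend on the scaling between libraries, and 4 were compared, with 0.5 counts added to both genes. Map3k14 per Traf3, the kinase per adaptor that targets it, was 0.450, 0.271, 0.529 and 0.152 in the control libraries and 0.663, 0.579, 0.632 and 0.640 in the RANKL libraries. The RANKL libraries were all above the controls. They lay closer together than counting error would make likely, with 29 counts of Map3k14 in RANKL replicate 1. The log2 ratio went from -1.67 ± 0.81 to -0.67 ± 0.08 (SD, n = 4 each), a difference of 1.00 (exact two-sided permutation p = 0.0286, Benjamini-Hochberg adjusted p over the 4 ratios 0.0571). Leaving out control replicate 4, which held 2 counts of Map3k14, brought the difference to 0.65, with an exact permutation p of 0.0571, the smallest possible for 3 against 4.

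Chuk per Ikbkb, the ratio of the catalytic subunits of IKK, went the other way. Control libraries held 0.454, 0.392, 0.429 and 0.610 counts of Chuk per count of Ikbkb, and RANKL libraries 0.320, 0.378, 0.312 and 0.305. Every RANKL library was lower than every control library, with RANKL replicate 2 just under control replicate 2. The log2 ratio changed from -1.11 ± 0.28 to -1.61 ± 0.14 (SD, n = 4 each), by -0.50 (exact two-sided permutation p = 0.0286, Benjamini-Hochberg adjusted p 0.0571). Neither of these ratios passes 0.05 after adjustment over the 4. Both were at the smallest exact p and the other ratios were not, so 0.0571 was the lowest adjusted value they could reach.

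The other 2 ratios overlapped between groups. Traf2 per Traf3 ran from 0.725 to 1.21 in the control and from 0.685 to 1.01 in the RANKL libraries, a log2 difference of -0.21 (exact permutation p = 0.314, adjusted 0.314). With 1 library left out this difference ran from -0.35 without control replicate 2 to -0.11 without RANKL replicate 1 and -0.10 without control replicate 3. Traf6 per Traf2 ran from 0.178 to 0.446 and from 0.0667 to 0.338, a log2 difference of -0.81 (exact permutation p = 0.286, adjusted 0.314), and this difference depended on single libraries. It was -0.29 without RANKL replicate 3, where Traf6 had 7 counts, and -1.12 without control replicate 3, with an exact permutation p of 0.0571, the smallest possible for 3 against 4.

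**Figure D3:**
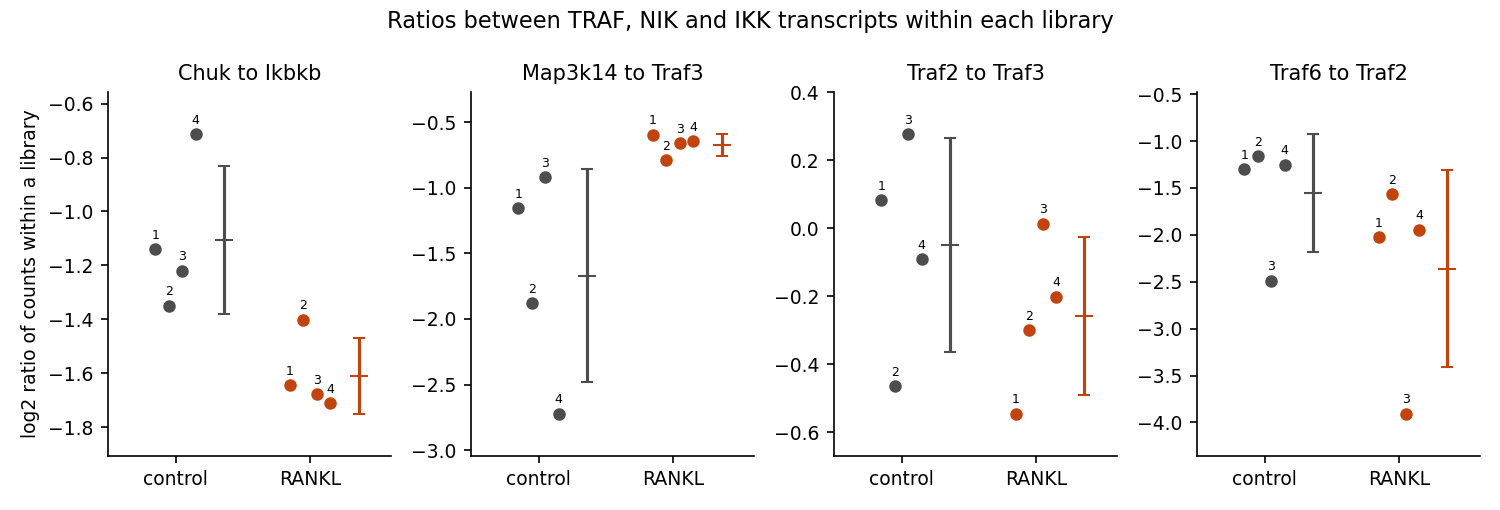
Log2 ratio of the counts of the named genes within each library, with 4 control points in grey and 4 RANKL points in orange, each numbered by replicate, and the mean and SD beside them. Chuk to Ikbkb is lower and Map3k14 to Traf3 higher in every RANKL library than in every control library, and the other 2 ratios overlap.

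The genes around this layer give its setting. Of 52 other genes of the pathway in 6 lists, 45 were tested, 18 rose, 1 fell and 26 did not pass, with a median log2 fold change of 0.24. Over all genes tested, 13.6% rose and 12.4% fell. No list was tested against these shares, and counts in the short lists can lie near them. Nfkbie, Tnfaip3 and Tnfrsf1b had enough counts to be tested only through their RANKL libraries, so their rises add little to the 18. The shares over all genes were counted under the same filter. The receptor itself, Tnfrsf11a (RANK), stood at 31.0 ± 6.41 CPM in the control and 155.6 ± 11.2 CPM in the RANKL libraries (SD, n = 4 each), and rose by 2.39 on the log2 scale. Transcripts of its ligand, Tnfsf11, had 0 counts in all 8 libraries. Among the receptors that recruit TRAFs, 3 of 5 tested rose, with a median of 0.49. Besides RANK these were the TNF receptors, Tnfrsf1b at 1.92 and Tnfrsf1a at 0.49, and Tnfrsf1a lost its call without RANKL replicate 4 (edgeR adjusted p = 0.059).

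The adaptors and ubiquitin ligases that work with TRAFs held 4 that rose among 17 tested, with a median of 0.23. Birc3 and Birc2, the ligases cIAP2 and cIAP1 that sit with TRAF2 and TRAF3 on NIK, rose by 2.19 and 0.56 on the log2 scale. Tank, a TRAF-binding scaffold, rose by 0.97. Trafd1, a zinc finger protein related to the TRAFs, rose by 0.83, but without RANKL replicate 4 its log2 fold change was 0.47 and its edgeR adjusted p 0.28, and the DESeq2 Wald test gave an adjusted p of 0.082.

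The list of the TAK1 complex and other MAP3 kinases left out Map3k14, a MAP3 kinase that rose and is among the 10 genes. Of its 6 tested genes, 0 rose, against 13.6% of all genes tested, and 6 genes are too few to set the list apart. Tab2, a ubiquitin-binding subunit of the TAK1 complex, fell by 0.34 on the log2 scale (edgeR adjusted p = 0.027), and the list median was -0.17. The call of Tab2 was lost under 5 of 17 alternatives, among them the DESeq2 Wald test and the fits without RANKL replicate 1 or 4. Of 3 IKK-related kinases and adaptors tested, 1 rose, Ikbke (IKKε), by 1.06, and the list median was 0.02. Its close relative Tbk1 had a log2 fold change of 0.02 and did not pass.

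All 8 IKK substrates and NF-κB subunits rose, with a median of 2.24, larger than that of the 8 tested TRAF, NIK and IKK genes. Nfkbie, at most 1.52 CPM in a control library, could be tested only through its RANKL libraries. Its rise therefore adds little to this count. Nfkb2, whose p100 product NIK and IKKα process, rose by 3.48, its partner Relb by 3.32, the inhibitors Nfkbia and Nfkbie by 3.24 and 3.31, and Rela by 0.87. The log2 fold change of Map3k14, 1.73, was under those of Nfkb2, Relb, Nfkbia and Nfkbie. It was above those of Nfkbib (1.25), Rel (1.10), Rela (0.87) and Nfkb1 (0.77). That of Ikbkb, 0.45, was under all 8, with these differences between genes not tested. Deubiquitinases of the pathway held 2 that rose among 6 tested, the feedback inhibitor Tnfaip3 (A20) by 3.05 and Cyld by 0.86, with a list median of 0.03.

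**Figure D4:**
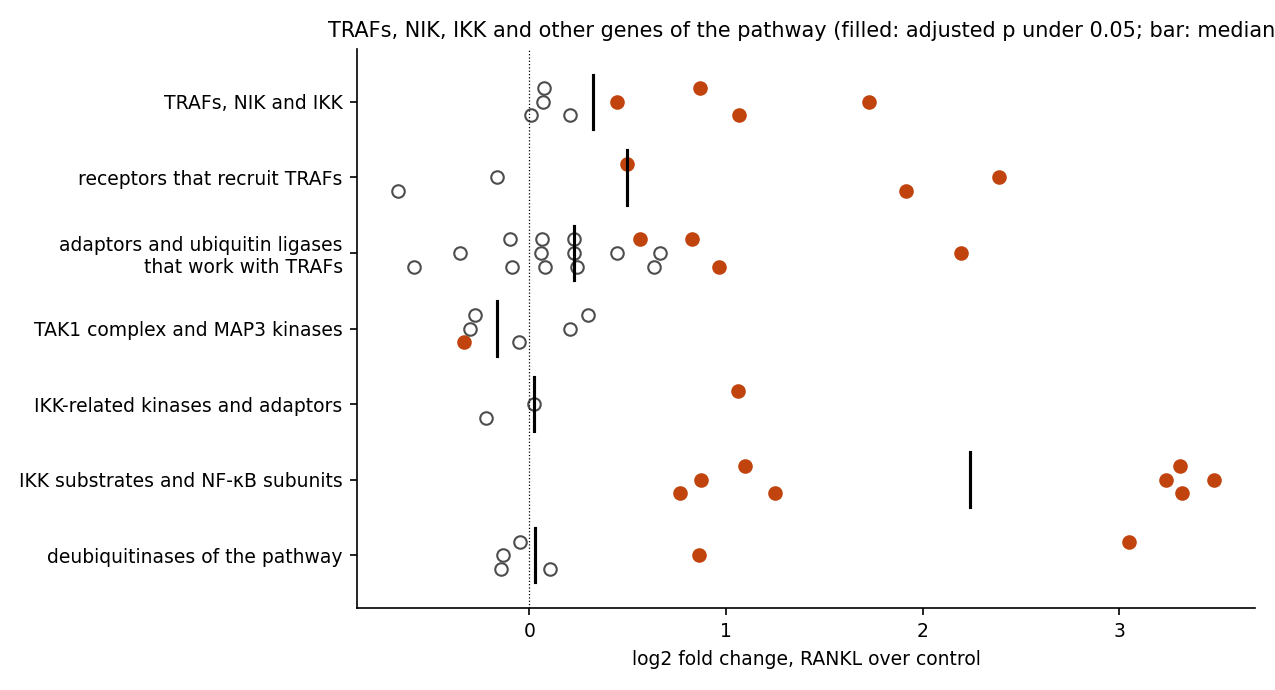
Log2 fold change of RANKL over control for each tested gene of the TRAF, NIK and IKK group and of 6 lists of other pathway genes, with filled points for an edgeR adjusted p under 0.05 and a bar at each list's median. All 8 IKK substrates and NF-κB subunits lie to the right of 0, and Nfkbie could be tested only through its RANKL libraries. The TAK1 complex and MAP3 kinases, a list of 6 tested genes without Map3k14, have no filled point above 0.

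Cell type markers moved in the same libraries. Of 7 M cell markers, 6 were tested and all 6 rose, and their summed level went from between 50.3 and 59.0 CPM in control to between 1834 and 2077 CPM in RANKL libraries, although Gp2, a marker of mature M cells, was at 0 counts in all 8. Of 3 stem cell markers, 2 fell, with sums from 1176 to 1580 CPM in control and from 976.0 to 1193 CPM in RANKL libraries. Paneth, goblet and enteroendocrine markers held no call in either direction, and 1 of 4 enterocyte markers rose. Of 3 tuft markers only 1 could be tested, and it did not pass. The part of these cell types in the levels of the TRAF, NIK and IKK genes was not tested, and in bulk RNA fewer cells of a type and less RNA per cell cannot be told apart.

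Among the 6646 tested genes at a mean of at least 20 CPM, those with the pattern most like Map3k14 over the 8 libraries were Nsmf, Sgpp1 and Arap1, with root mean square differences of 0.35, 0.38 and 0.38 between centred log2 CPM values and log2 fold changes of 1.14, 1.79 and 2.10.

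**Figure D5:**
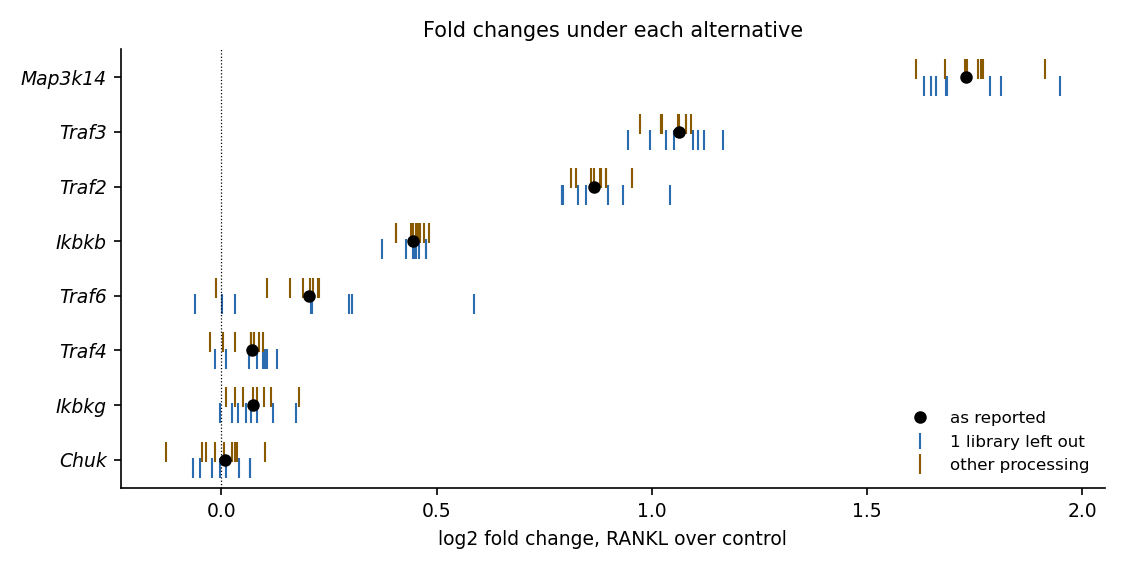
Log2 fold change of the 8 tested genes as reported (black point), with 1 library left out (blue) and under the other processing alternatives (brown). Map3k14 stays between 1.61 and 1.95, Traf3, Traf2 and Ikbkb stay above 0, and Traf6, Traf4, Ikbkg and Chuk lie on both sides of 0.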

How the data were processed

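RNA of 4 control and 4 RANKL-treated organoid samples was sequenced with the QuantSeq forward 3′ kit. The authors trimmed reads with BBDuk, removed abundant sequences with bowtie2, aligned with STAR to GRCm38 (mm10 per the labels) and counted strand-specifically with featureCounts on Ensembl genes. The deposited values are raw counts per gene with no normalization. Conditions and replicate numbers come from the sample labels.

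Identifiers were matched to GENCODE M21 (54495 of 54532, the others held 0.0067% of counts), whose GRCm38 coordinates are printed. In R 4.3.3, edgeR 4.0.16 used library totals with TMM factors, its low-count filter and a quasi-likelihood test. Ratios and CPM were tested by exact permutation (scipy 1.17.1). Steps were tested on simulated data. Alternatives were DESeq2 1.42.0, limma-voom (limma 3.58.1), other scalings and filters, the replicate number as a block, depth as a covariate and each library left out. A fit without both shallowest libraries was added after seeing the data.

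The genes and lists were chosen with earlier results of these data known. The text names all 10 genes, from each list up to 5 genes by smallest adjusted p among those past the threshold with 5 CPM or more on average, Tnfrsf11a and Tnfsf11, and the 3 genes most like Map3k14. Tbk1, Nfkbib, Nfkb1 and Rel, and the genes named for a κB match alone (Tifa, Sqstm1, Map3k7 and Tbkbp1), are outside that rule. They were chosen after their values were seen. Cell type markers come from lists of their own. A comparison of the protein sequences was planned and not run.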

Additional observations from a re-analysis of the deposited data

Results flagged for a closer look

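Of 60 groups of 4 library values of the named genes and ratios, 5 held a library far from the other 3 by Dixon's criterion, where chance alone gives about 3. For Traf2, control replicate 3 stood at 39.03 CPM, against 27.4 CPM in the next library. For Traf4, RANKL replicate 1 stood at 87.18 CPM, against 70.2 CPM. For Trafd1, RANKL replicate 4 stood at 28.01 CPM, against 14.5 CPM. For Nfkbia, control replicate 3 stood at 189.1 CPM, against 275.2 CPM. For Traf6 per Traf2, control replicate 3 stood at 0.178, against 0.406. Control replicate 3 was the far library in 3 of the 5. Among these, Traf2 and Traf6 per Traf2 share the same Traf2 counts and are not separate signs. Without control replicate 3, the log2 fold change was 1.04 for Traf2 and 3.10 for Nfkbia, and both stayed past the threshold by edgeR.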

How the results depend on the processing

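Map3k14, Traf3, Traf2 and Ikbkb kept their direction and their call under every alternative that gave them a value, and the count of these genes that rose was 4 under 17 of 18 alternatives and 3 where at least 10 counts were asked of every library, which leaves Map3k14, Traf6 and Ikbkg untested. Of 133 alternative values of the 8 tested genes, 120 kept direction and call and 13 changed sign, all of genes that did not pass. These were Traf4 with the depth covariate (-0.026) and in its range with 1 library left out (-0.015 to 0.13), Traf6 under limma-voom (-0.012) and with 1 library left out (-0.060 to 0.59), Chuk under the DESeq2 Wald test (-0.014), with no filter (-0.035), with the replicate block (-0.045), with the depth covariate (-0.13) and with 1 library left out (-0.067 to 0.068), and Ikbkg with 1 library left out (-0.0036 to 0.17).

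The replicate numbers gave no clear sign of pairing: the deviations of same-numbered control and RANKL libraries correlated at -0.01, -0.03, 0.10 and 0.04. Pairs with different numbers ran from -0.13 to 0.09. This check cannot exclude pairing, because counting error in the shallow libraries can hide a shared effect. Under the replicate block, 4 of the genes still rose, and the ratios Chuk to Ikbkb (-0.50) and Map3k14 to Traf3 (1.00) had an exact sign-flip permutation p of 0.125, the smallest that 4 pairs allow. With 1 library left out, these ratios ran from -0.59 to -0.37 and from 0.65 to 1.25, with p of 0.0571, again the smallest possible. These p-values therefore say nothing about stability.

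The pathway genes that rose numbered 9, not 18, with at least 10 counts in every library, where fewer genes are tested. Those that fell numbered 0 under DESeq2, the depth covariate and an adjusted p of 0.01, 2 with no filter and without both shallowest libraries, and from 0 to 3 with 1 library left out. Over all genes, falls numbered 1232 as reported, 808 with the depth covariate, 707 at an adjusted p of 0.01 and from 814 to 1234 with 1 library left out, lowest without RANKL replicate 4. The causes were not tested. At these depths Traf1 and Traf5 could not be tested, and Traf6 has the widest interval of the 8 tested TRAF, NIK and IKK genes.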
